A study of Homo sapiens with 8 samples.

Results

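The protein 4.1 family genes are EPB41, EPB41L1, EPB41L2, EPB41L3, EPB41L4A, EPB41L4B and EPB41L5, and the values described here are the peaks that an RBFOX2 eCLIP experiment called in their transcripts. A peak was counted as a member when its midpoint lay in the RefSeq span of 1 of these 7 genes, on the strand of that gene. This gave 1197 of the 1118316 called peaks of the series. The study compared RNA immunoprecipitated (IP) with RBFOX2 against input RNA in HEK293T, a human embryonic kidney cell line. It holds 8 samples, 4 IP and 4 input, all from crosslinked cells (254 nm, 400 mJ per square centimetre), with 2% of each sample kept as the input of its IP. The samples are numbered 1 to 4 in each group, and the numbers are called replicates here; the labels do not say whether they came from separate cultures, so the spread between them may be technical. Each of the 4 deposited lists sets 1 IP library against the input of the same number. The lists hold no expression levels, so the labelled cell line was not checked against marker genes.

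Proteins of the 4.1 family share a FERM domain, which binds the cytoplasmic tails of membrane proteins. EPB41 encodes 4.1R, first known from red blood cells, where it ties the spectrin-actin network to the membrane. EPB41L2 (4.1G), EPB41L1 (4.1N) and EPB41L3 (4.1B) encode its closest relatives, which also carry a spectrin-actin binding region, whereas EPB41L4A, EPB41L4B and EPB41L5 encode more distant members without it. RBFOX2 is an RNA-binding protein that recognises GCAUG in pre-mRNA and changes the inclusion of nearby exons, and an alternative exon in the spectrin-actin binding region of 4.1R is a textbook target of RBFOX proteins.

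RBFOX2 enrichment in this family was carried mainly by 1 cluster of peaks in EPB41L2. Of the 70 enriched peaks in the 7 genes, 56 lay in EPB41L2, 9 in EPB41 and 5 in EPB41L5. EPB41L1, EPB41L3, EPB41L4A and EPB41L4B held 0. Enrichment meant that a peak reached both a log2 fold of IP over input of 3 and a −log10 p of 3, each the authors' own value for that peak. The 4 lists held 16, 17, 19 and 18 enriched family peaks in replicates 1 to 4 (mean 17.5 ± 1.29, SD, n = 4), out of 288, 296, 302 and 311 called ones. That was 5.84% ± 0.31 (SD, n = 4) of called family peaks, while 0.818% of all called peaks of the series passed the same limits. Without EPB41L2 the share was 1.48% ± 0.39 (SD, n = 4). The 56 EPB41L2 peaks lay within 840 nt, many of them end to end. These counts and shares thus also depend on how a signal was cut into peaks. The genes were chosen with these folds known and the folds come from the contrast that defined the members, so all of these values are descriptions and none was tested.

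**Figure D1:**
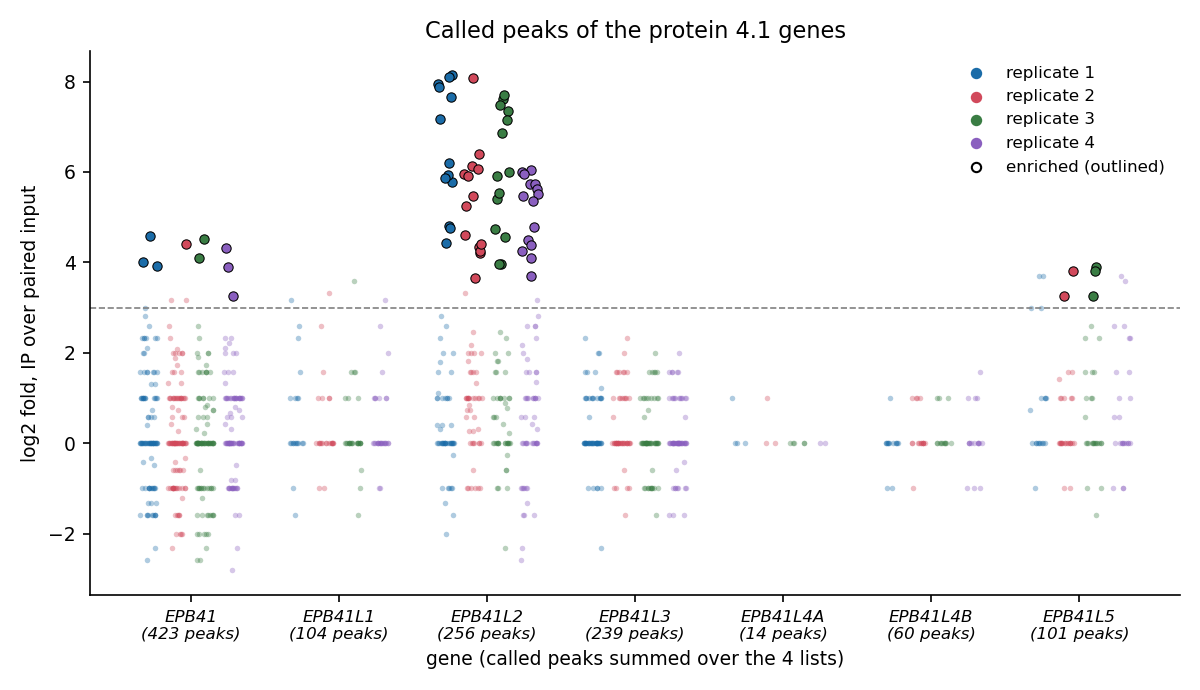
Each point is 1 called peak; the y axis gives its log2 fold of IP over paired input, the x axis the gene, and colours the 4 replicates. Outlined points are enriched and the dashed line marks a log2 fold of 3. EPB41L2 holds 56 of the 70 outlined points, and its points reach 8.13 while those of EPB41L3 stop at 2.32.

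The median log2 fold of called family peaks was that of all called peaks in every list, between −0.000866 and 0.00141, which is also the commonest value of each list and stands for equal IP and input. Of all called family peaks, those of the EPB41L2 cluster included, 39.2% ± 3.18 stood above a log2 fold of 0.5 and 17.0% ± 1.21 below −0.5 (SD, n = 4 for both). Over all peaks of the series these shares were 31.4% and 23.6%. Just inside the limits lay an EPB41 peak with a log2 fold of 3.25 and an EPB41L5 peak with a −log10 p of 3.29. Just outside lay 12 peaks whose fold passed and whose p did not, the nearest being an EPB41L1 peak with a log2 fold of 3.59 and a −log10 p of 2.74. No family peak passed the limit on p with a fold under 3.

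Merging enriched peaks of the 4 lists that shared 1 nt or more of a strand gave 11 regions in the family. Of these, 5 had an enriched peak in all 4 replicates, 4 of them in EPB41L2 and 1 in EPB41. Over the whole series 16.4% of such regions had an enriched peak in all 4. At the level of genes, 2 of the 7 family genes held a region enriched in all 4 replicates, while 1.94% of the 11970 genes with a called peak on their strand did. Of the 5 family genes with at least 100 called peaks over the 4 lists, 2 held such a region and 3 held an enriched peak, and 5.59% and 20.5% of the 2738 genes with that many called peaks did so. Since the family was chosen from this contrast, nothing is read from the difference.

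EPB41L2, the gene of 4.1G, spans 223899 nt on the minus strand of chromosome 6 (chr6:130839347-131063245, RefSeq gene 2037). It had 65, 61, 60 and 70 called peaks in replicates 1 to 4, of which 13, 14, 14 and 15 were enriched. EPB41, the next gene by enriched peaks, had 3, 1, 2 and 3. All 56 enriched EPB41L2 peaks fell within 840 nt, at chr6:130879292-130880131, about 183 kb from the 5′ end of the gene and 82.0% of the way along its span. No called peak in this stretch was left unenriched, and their lowest −log10 p was 4.40. Of the 200 called peaks in the rest of the gene 0 were enriched, and the highest log2 fold there was 3.32. Of the 60 called peaks outside the cluster but within 10 kb of its centre, 0 were enriched and the median log2 fold was 0.95.

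**Figure D2:**
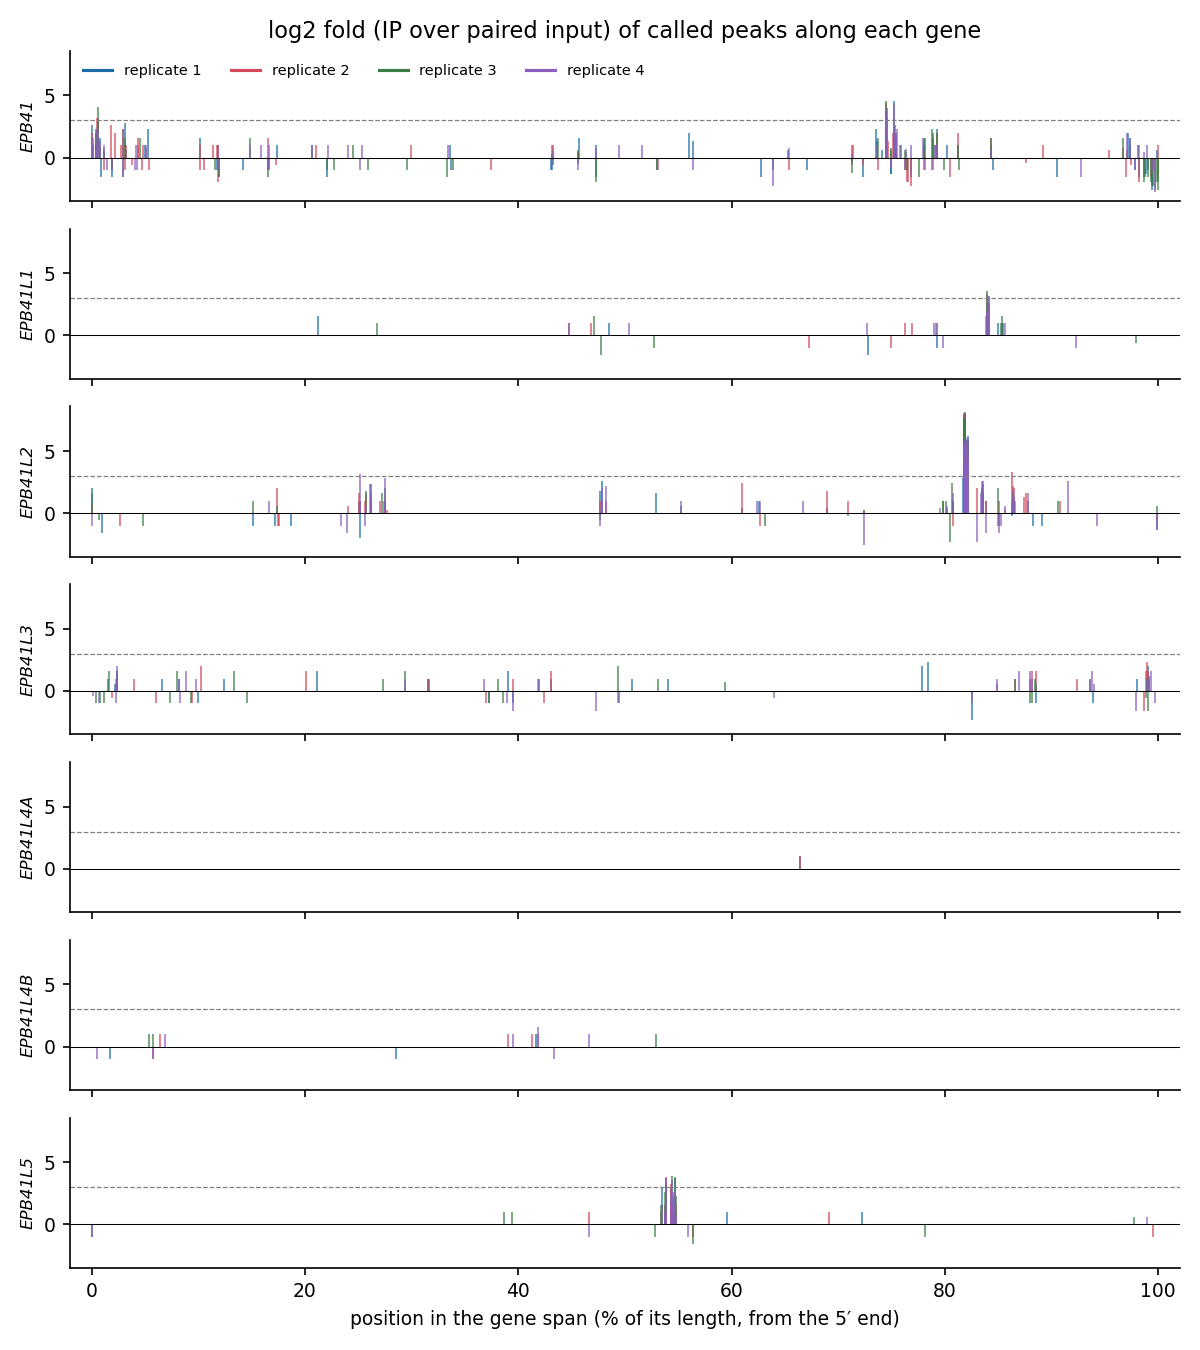
Vertical lines show the log2 fold of IP over paired input of every called peak (y axis) at its position along the gene (x axis, percent of the gene span from the 5′ end), coloured by replicate; the dashed line marks a log2 fold of 3. The EPB41L2 lines that pass it in all 4 replicates stand near 82.0% of the span, those of EPB41 near 74.5%, and in EPB41L5 the highest lines stand between 53.9% and 54.7%.

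The cluster had 2 main blocks and a narrow peak between them. The block nearer the 5′ end of the transcript was made of region 3 (chr6:130879815-130880047) and region 4 (chr6:130880048-130880131), which touch without overlapping. In all 4 lists a peak ended at the last base of region 3 and another started at the first base of region 4. The largest −log10 p of the family stood in region 3, at 82.1, 79.2, 65.7 and 67.6 in replicates 1 to 4. The log2 folds of those same peaks were 8.13, 8.08, 6.85 and 5.96 (mean 7.26 ± 1.05, SD, n = 4). Among these peaks the fold was highest in replicates 1 and 2 and lowest in replicate 4. All 4 cover the base at 130880003, but the peak of replicate 2 ends there and those of replicates 1 and 4 start there. The adjoining peak of replicate 2 (130880004-130880035) had a log2 fold of 6.40, and the replicate 3 peak at 130880017-130880033 had 7.69. The order of replicates 2 and 3 thus depended on where the peaks were cut. Divided by the commonest fold of their list, the folds of the 4 peaks with the largest −log10 p were 281, 270, 115.5 and 62.25. Read counts were not used here, so these folds carry no interval for counting error. Whether their spread between replicates came from the IP or from low input counts was not tested.

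Region 4 had log2 folds of 7.89, 5.95, 7.36 and 5.52 (mean 6.68 ± 1.12, SD, n = 4) at −log10 p values between 47.5 and 69.0. By the mean log2 fold of the peak with the highest −log10 p, region 3 ranked 2 and region 4 ranked 4 among the 552 regions of the series that were enriched in all 4 replicates. By the lowest −log10 p of the 4 replicates they ranked 3 and 6. Both regions are parts of the same block, so these ranks count that block more than once.

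The block nearer the 3′ end, region 1 (chr6:130879292-130879512), had log2 folds of 6.19, 4.42, 6.001 and 6.04 (mean 5.66 ± 0.83, SD, n = 4). Replicate 2 lay below the other 3, although its −log10 p of 15.5 was close to their range of 17.7 to 20.1. Region 2 (chr6:130879642-130879709), 68 nt long, stood between the blocks as 1 peak in each list, with log2 folds of 4.75, 5.46, 4.73 and 4.09 (mean 4.76 ± 0.56, SD, n = 4). Regions 1 and 2 ranked 30 and 129 of the 552 by mean log2 fold. A further 25 nt peak between them was called in replicate 4, with a log2 fold of 4.25, and in no other list. Of the 631 bases covered by a called peak in any list, 558 were covered in all 4.

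**Figure D3:**
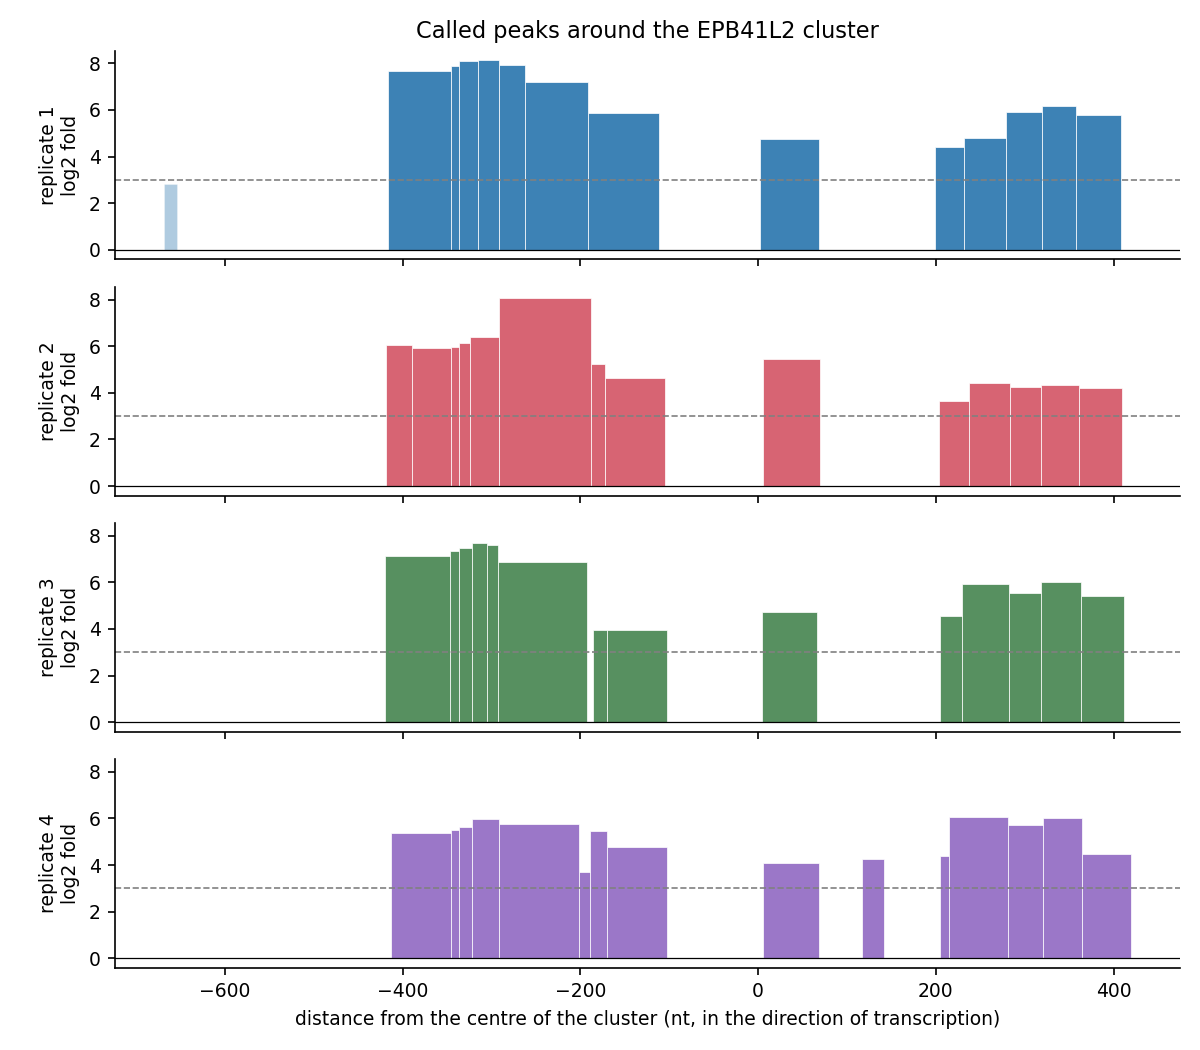
Bars are called peaks around the EPB41L2 cluster in each replicate; their width is the length of the peak, the x axis is the distance in nt from the centre of the cluster in the direction of transcription, and the y axis is the log2 fold of IP over paired input. Dark bars belong to the cluster and the dashed line marks a log2 fold of 3. The same 2 blocks and the narrow peak between them appear in all 4 replicates, and the tallest bar is 8.13, 8.08, 7.69 and 6.04 in replicates 1 to 4.

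EPB41, the gene of 4.1R, spans chr1:28887100-29120041 on the plus strand (RefSeq gene 2035). It had the most called peaks of the family, 104, 113, 105 and 101, or 0.454 ± 0.022 per kb of gene span (SD, n = 4), and 3, 1, 2 and 3 of them were enriched. Its 1 region enriched in all 4 replicates, region 1 (chr1:29060469-29060761), lay 74.5% of the way along the gene. Its log2 folds were 3.93, 4.42, 4.52 and 3.91 (mean 4.19 ± 0.32, SD, n = 4), with −log10 p values of 13.4, 15.5, 11.4 and 6.61. The 4 folds were close together and all above the limit, and by mean log2 fold the region ranked 280 of the 552.

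The remaining EPB41 and EPB41L5 regions are described because they held an enriched peak in 1 or 2 replicates, a choice made after their values were seen. EPB41 region 2 (chr1:29062338-29062459) started 1576 nt downstream of region 1. Its log2 folds were 4.58, 2.09, 1.91 and 4.32, with −log10 p values of 5.81, 2.36, 1.93 and 4.68. It was thus enriched in replicates 1 and 4 only, with a mean of 3.23 ± 1.42 (SD, n = 4) over all 4. EPB41 region 3 (chr1:28888429-28888566) lay 1.40 kb from the 5′ end of the gene and passed in replicate 3, with log2 folds of 2.999, 3.17, 4.09 and 2.11. Within 1 kb of regions 1 and 2, 27 of 36 called peaks had a log2 fold above 0.5. Elsewhere in EPB41, 129 of 387 did. The 36 peaks include the 8 enriched ones around which the stretch was drawn, so this contrast is a description.

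The 2 ends of EPB41 are described as windows chosen after the values were seen, with no test. In the last 5 kb of the gene span, 23 of 34 called peaks had a log2 fold below −0.5, 5 had one above 0.5 and 0 were enriched. Over all genes, 26.3% of called peaks in the last 5 kb of a span were below −0.5. The median log2 fold in this window of EPB41 was −1.59, −0.66, −2.0 and −0.29 in replicates 1 to 4, below 0 in each list. In the first 5 kb, 24 of 39 called peaks were above 0.5, 8 were below −0.5 and 1 was enriched, that of region 3. Over all genes, 34% of called peaks in the first 5 kb of a span were above 0.5 and 25.8% below −0.5. The median log2 fold in this window of EPB41 was 1.29, 0.26, 0.77 and 1.00 in replicates 1 to 4, above 0 in each list. In the first 5 kb of EPB41L3, 2 of 18 called peaks were above 0.5 and 5 below −0.5. In EPB41L2 3 of 7 were above and 3 below. EPB41L4B had 0 of 5 above and 2 below there, and EPB41L5 had 0 of 3 above and 2 below. In EPB41L3 the last 5 kb held 24 called peaks, of which 14 were above 0.5 and 5 below −0.5, and 36.0% of called peaks in the last 5 kb of any gene were above 0.5. EPB41L2 had 4 called peaks in its last 5 kb, 3 below −0.5 and 1 above 0.5. EPB41L5 had 6 there, 1 below and 2 above, and EPB41L1 had 2, 1 below and 0 above.

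EPB41L5 encodes a FERM protein known for its part in epithelial-mesenchymal transition and cell adhesion. The gene spans chr2:120013077-120179119 on the plus strand (RefSeq gene 57669) and had 19, 28, 29 and 25 called peaks. Its enriched peaks numbered 0, 2, 3 and 0, so no region was enriched in all 4 replicates. The folds themselves recurred in all 4. Region 1 (chr2:120102424-120102616) had log2 folds of 3.70, 3.81, 3.25 and 3.70 (mean 3.61 ± 0.25, SD, n = 4), with −log10 p values of 2.74, 3.29, 3.92 and 2.74. Region 2 (chr2:120103280-120103408), 663 nt downstream, had log2 folds of 2.999, 3.25, 3.91 and 3.58 (mean 3.44 ± 0.40, SD, n = 4) and −log10 p values of 2.88, 3.92, 3.56 and 2.47. In both regions the p and not the fold left out replicate 4, and in region 1 replicate 1 as well. In region 2 the fold of replicate 1, at 2.999, also fell just short.

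EPB41L5 region 3 (chr2:120103899-120104004) had log2 folds of 3.70, 1.59, 3.81 and 1.58 and was enriched in replicate 3. Within 1 kb of these 3 regions, a stretch of 3581 nt, 36 of 38 called peaks had a log2 fold above 0.5 and 0 had one below −0.5. In the rest of the gene 8 of 63 were above 0.5 and the highest log2 fold was 1.00. The stretch was picked for its folds, so this contrast is a description.

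**Figure D4:**
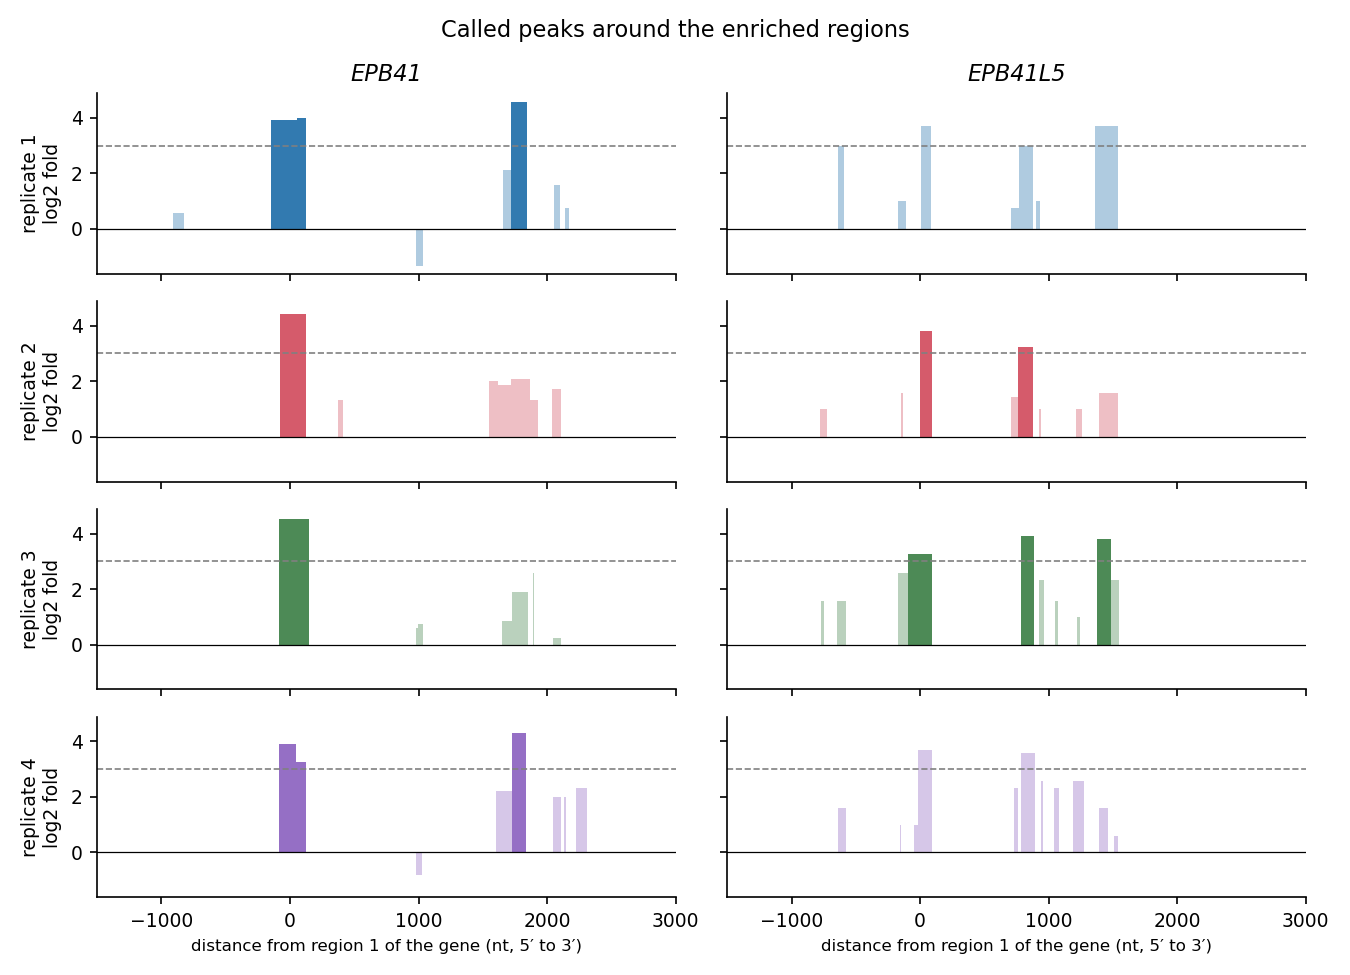
Bars are called peaks around the enriched regions of EPB41 (left) and EPB41L5 (right) in each replicate; the x axis is the distance in nt from the centre of region 1 of each gene, the y axis the log2 fold of IP over paired input, and the dashed line marks a log2 fold of 3. Dark bars are enriched: EPB41 region 1 is dark in all 4 replicates and EPB41 region 2 in replicates 1 and 4. EPB41L5 regions 1 and 2 are dark in replicates 2 and 3, and EPB41L5 region 3 in replicate 3.

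EPB41L1 and EPB41L3 encode the 4.1 proteins known mainly from neurons (4.1N) and from brain and as a candidate tumour suppressor (4.1B). EPB41L1 (chr20:36091414-36232799, plus strand, RefSeq gene 2036) had 20, 24, 29 and 31 called peaks and 0 enriched in each list. Its region with the highest mean fold among those called in all 4 lists (chr20:36209982-36210141) had log2 folds of 2.58, 3.32, 3.59 and 2.00 (mean 2.87 ± 0.72, SD, n = 4) with −log10 p values of 0.903, 2.20, 2.74 and 0.961. A neighbour just downstream, named after its values were seen (chr20:36210177-36210421) had log2 folds of 3.17, 2.59, 1.59 and 3.17. Each list thus had 1 peak past the fold limit in this pair of regions, and none passed on p.

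EPB41L3 (chr18:5392386-5630663, minus strand, RefSeq gene 23136) had 62, 51, 61 and 65 called peaks, close to the number in EPB41L2, and 0 enriched. No log2 fold in the gene passed 2.32 and no −log10 p passed 0.904. Its region with the highest mean (chr18:5624929-5625049) had log2 folds of 1.58, 1.00, 1.59 and 2.00 (mean 1.54 ± 0.41, SD, n = 4). The called peaks per kb of gene span were 0.251 ± 0.025 in EPB41L3 and 0.286 ± 0.020 in EPB41L2 (SD, n = 4), and the ranges of the 4 lists, 0.214 to 0.273 and 0.268 to 0.313, overlapped.

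EPB41L4A and EPB41L4B, relatives without the spectrin-actin binding region, had few called peaks. EPB41L4B (chr9:109171974-109321059, minus strand, RefSeq gene 54566) had 14, 16, 13 and 17 with log2 folds up to 1.58. EPB41L4A (chr5:112141829-112419935, minus strand, RefSeq gene 64097), the longest gene of the family, had 4, 3, 5 and 2 with log2 folds up to 1.00. Neither gene had a region called in all 4 lists or an enriched peak. The order of called peaks per kb was EPB41, EPB41L2, EPB41L3, EPB41L1, EPB41L5, EPB41L4B and EPB41L4A, at 0.454, 0.286, 0.251, 0.184, 0.152, 0.101 and 0.0126. The ranges of neighbours overlapped for EPB41L2 and EPB41L3, for EPB41L3 and EPB41L1, and for EPB41L1 and EPB41L5. The lists hold no transcript levels, so these counts were not set against the abundance of each transcript.

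**Figure D5:**
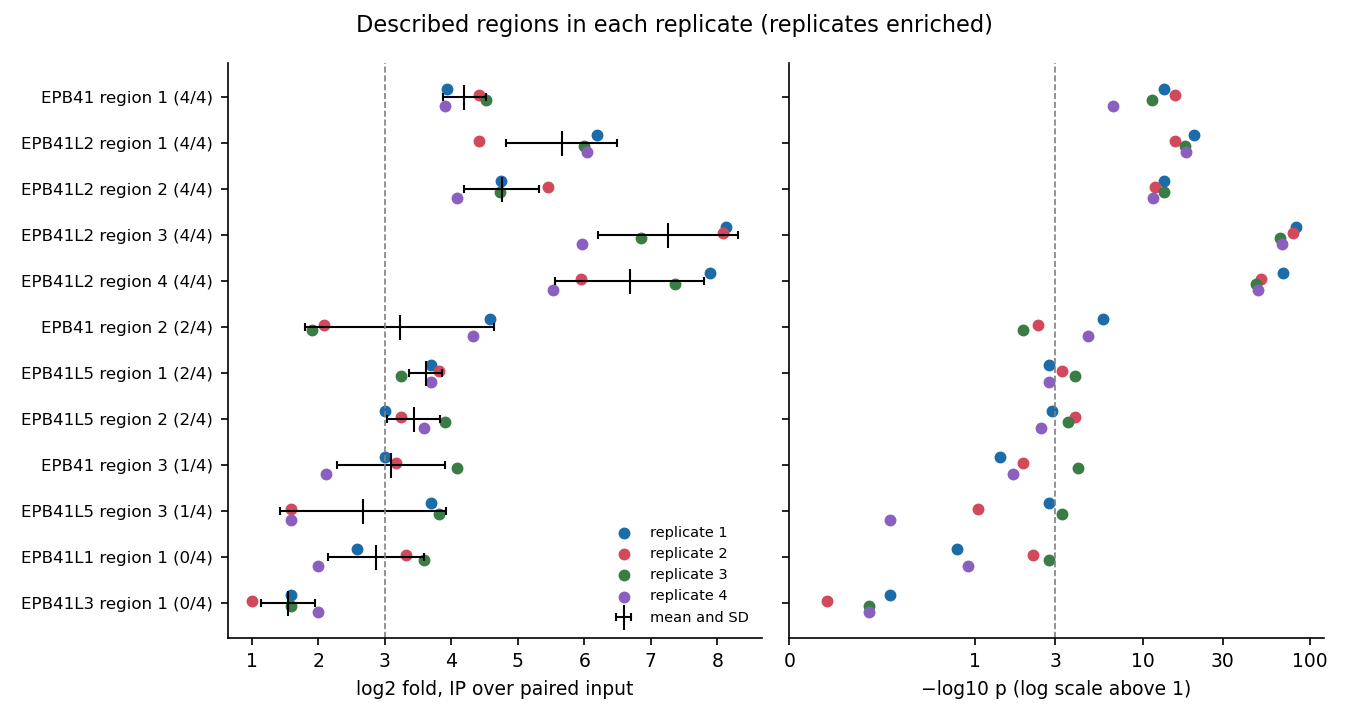
Rows are the described regions, labelled with the number of replicates in which they were enriched; points are the 4 replicates, the left axis gives the log2 fold of IP over paired input with the mean and SD (bars), and the right axis the −log10 p (log scale above 1). Dashed lines mark the limits of 3. The 4 EPB41L2 regions and EPB41 region 1 lie past both limits in all 4 replicates, while the EPB41L5 regions straddle the limit on p; the EPB41L2 peak called in 1 list is not shown.

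Across all 7 genes, called peaks of the 4 lists merged into 704 regions, of which 64 (9.09%) were called in all 4, and 7.06% of all regions of called peaks in the series were. EPB41 held 29 of the 64, EPB41L2 17, EPB41L3 8, EPB41L5 7 and EPB41L1 3. The median over these regions of the mean log2 fold was 0.95, and the median SD between the 4 values of a region was 0.83. The mean was above 0.05 in 21 of the 29 EPB41 regions, 16 of the 17 in EPB41L2, 7 of the 8 in EPB41L3, 6 of the 7 in EPB41L5 and all 3 in EPB41L1. Each mean takes the peak with the highest −log10 p per list, which favours higher folds. The same median and counts over all regions of the series were not computed, so nothing about the family is read from them. Spearman's rho of the log2 fold between 2 replicates lay between 0.545 and 0.667 over the 64 regions, and between 0.447 and 0.595 over the 60 regions outside the EPB41L2 cluster. These are descriptions across regions of few genes, whose values share a library.

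By the percent of called peaks that were enriched in each replicate, EPB41L2 stood at 20, 23.0, 23.3 and 21.4. Among the 2738 genes with at least 100 called peaks, the 3 nearest in Euclidean distance over the 4 replicates were CABLES1 (distance 2.02 percentage points), SMARCB1 (4.61) and FAM13B (4.99). They held 71, 45 and 31 enriched peaks and 7, 4 and 3 regions enriched in all 4 replicates. By the number of enriched peaks summed over the lists, EPB41L2 ranked 23 of the 11970 genes, EPB41 ranked 179 and EPB41L5 ranked 292. These ranks count adjoining peaks of the same cluster separately.

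The protein partners of the family were described by the same limits. Of 19 genes listed for the spectrin-based membrane skeleton, the 14 with a strand in the promoter table were analysed here. Of the 14, 13 had a called peak, 4 had an enriched peak and 1 had a region enriched in all 4 replicates, and 1.94% of all genes with a called peak had such a region. All 4 genes with an enriched peak were among the 7 with at least 100 called peaks, and 20.5% of all genes with that many held an enriched peak. Of those 7, 1 had a region enriched in all 4 replicates, and 5.59% of all genes with that many called peaks did. That gene was ADD2, which encodes beta-adducin, a protein that caps actin filaments and recruits spectrin to them. ADD2 had 7, 5, 5 and 5 enriched peaks in replicates 1 to 4. Its stronger region (chr2:70747348-70747678, minus strand) had log2 folds of 6.27, 5.49, 6.07 and 6.15 (mean 5.99 ± 0.34, SD, n = 4), and the other (chr2:70675123-70675293) had 5.00, 5.00, 3.25 and 4.46. Further genes are named after their values were seen: the spectrin gene SPTBN1 had 412 called peaks and 2 enriched ones, and SPTAN1 had 180 and 1. The adducin gene ADD1 had 166 and 1, and the adducin gene ADD3 had 218 and 0. The ankyrin genes ANK2 and ANK3, whose products link spectrin to membrane proteins, had 612 and 321 called peaks and 0 enriched. Of the other FERM genes EZR, RDX, MSN and NF2, NF2 had 4 enriched peaks of 232, the others had 0, and none held a region enriched in all 4 replicates.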

How the data were processed

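Per the labels' protocols, RBFOX2 was immunoprecipitated from crosslinked HEK293T cells and eCLIP libraries were made. The submitters' processing notes name UMI-tools 1.1.1, cutadapt 3.2, STAR 2.7.7a and the builds hg38 and GRCh38.p13; the peak caller, its filters, the p-value test and the scaling are not given in the sources used here. The authors deposited 1 peak list per replicate, without a header. From the values, deposited column 4 was taken to hold −log10 p-values and deposited column 5 log2 folds of IP over input. Read depth is unknown, so values carry no interval for counting error. Coordinates are 1-based, taking the lists as BED.

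Gene spans came from RefSeq (GRCh38.p14). The strand came from the RefSeq promoter table, and for EPB41L4B, which that table does not list, from its called peaks, all 60 on the minus strand. A region takes, per replicate, the peak with the highest −log10 p. Exons, introns and sequence under the peaks were not analysed here. Named regions are those enriched in all 4 or in 3 replicates, otherwise the highest mean among regions called in all 4; the remaining named regions of EPB41, EPB41L1, EPB41L2 and EPB41L5 were added after their values were seen. The members, lists and thresholds were chosen with earlier results of these data known. Merging was tested on 500 simulated regions, and all were recovered. Python 3.11.15, numpy 2.4.6 and pandas 2.3.3 were used. Alternatives changed the limits, membership, overlap and replicates.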

Additional observations from a re-analysis of the deposited data

Results flagged for a closer look

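Of 36 groups of 4 replicate values examined, 1 had a value set far apart from the rest. The groups were called and enriched peaks per gene, log2 folds of regions, family totals and measures of the EPB41L2 cluster. In EPB41L2 region 1, the block of the cluster nearer the 3′ end of the transcript, replicate 2 had a log2 fold of 4.42 while the others had 6.19, 6.001 and 6.04. The gap to the nearest value was 0.894 of the whole range, above Dixon's critical value for 4 samples. Chance gives about 1 such value in 20 groups. Among the 36 were groups with 4 equal values or a missing value, which could not be flagged. Whether the low fold of replicate 2 came from the IP or from the input counts was not tested.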

How the results depend on the processing

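Of 72 alternative values, 61 stayed within the margins (1.5 times for counts, 1 SD for shares and medians) and 11 did not. Asking for a log2 fold of 4 or more, whatever the p, left 1 gene with a region enriched in all 4 replicates (EPB41L2) and gave a share of 4.76%. A −log10 p of at least 5 gave 4.94% and 6 regions enriched in any replicate. Joining enriched peaks up to 200 nt apart turned the 5 regions enriched in all 4 replicates into 2 and the 11 enriched in any into 7. Asking for a mutual overlap of at least 50% gave 12 and 26. Leaving out peaks inside the span of another gene gave a share of 6.29%. Without EPB41L2, a mean of 3.5 enriched peaks per replicate remained, and a share of 1.48%. The joining of peaks and the removal of EPB41L2 were chosen after seeing the data. Leaving out each replicate in turn gave 17 to 18 enriched peaks per replicate, 5 or 6 regions enriched in all remaining replicates and 2 genes. The planned comparison of GCATG in the regions was not run, for want of a genome sequence in this work. No paired analysis was possible because the pairing of IP with input is built into every fold of the 4 lists. Without read counts, regions near the limit on p, such as those of EPB41L5, are the least certain.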

Other observations

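The EPB41L4A span held more peaks on the opposite strand than on its own, 26 against 14. Of the 26, 16 lay in the span of the noncoding gene EPB41L4A-AS1 (chr5:112160526-112162501), with log2 folds from −1.999 to 0.46, and 0 of the 26 were enriched. EPB41, EPB41L1, EPB41L2, EPB41L3 and EPB41L5 had 0 called peaks on the opposite strand of their span. For EPB41L4B this count says nothing, since its strand was taken from its peaks.

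At the annotated transcription starts, 15 RefSeq promoter windows were listed for 6 of the 7 genes. Of these, 4 overlapped a total of 11 called peaks and 0 enriched ones. The EPB41L2 start at the 5′ end of the gene span was overlapped by 1 peak in each list, with log2 folds between −1.0 and 2.0.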
